A study of Mus musculus with 6 samples.

Results

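Cdx1, Cdx2, Isx, Hnf4a, Hnf4g, Gata4, Gata6 and Foxa2, 8 transcription factor genes of the intestinal and gastric endoderm, were followed in metaplastic nodules of the mouse squamo-columnar junction (SCJ). They were picked by name out of the 24647 genes with a symbol on the arrays, and each was read by 1 probe set. The nodules came from C57/BL6 mice of 2 genotypes, with 3 samples each. *L2-IL-1β* mice (52543, 52544 and 52545) produce IL-1β from a transgene that is active in squamous cells of esophagus and forestomach. *K14-Cdx2::L2-IL-1β* mice (52540, 52541 and 52542), called double transgenic here, carry the same transgene and also express Cdx2 from the keratin 14 promoter, which is active in basal squamous cells. Both genotypes thus share the IL-1β transgene, and both were given 0.2% deoxycholic acid for 12 months from 8 weeks of age, to an age of 14 months. The comparison asks which of these factors differ in nodules that form with and without ectopic squamous Cdx2. Total RNA of whole nodules was measured, so fewer cells of a type and less RNA per cell cannot be told apart. The sources used here do not say whether a sample pools nodules of several mice. The p-values therefore weigh a difference against the spread between samples, which may not be the spread between mice.

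These factors act in tiers. Cdx1 and Cdx2 are caudal-type homeobox factors that specify intestinal identity and are silent in the normal esophagus and stomach, whereas Cdx2 appears in human intestinal metaplasia. Isx is an intestine-specific homeobox factor that lies downstream of Cdx2 and represses genes of carotenoid uptake and cleavage. Hnf4a and Hnf4g are nuclear receptors that drive enterocyte genes, Gata4 and Gata6 are zinc finger factors of the stomach and intestine, and Foxa2 is a forkhead pioneer factor of the early endoderm. The last 5 are also used outside the intestine, in glandular stomach, pancreas or liver.

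Values are log2 intensities as deposited, so that a difference of 1 is a 2-fold change, and the levels of different probe sets are not comparable with each other. The threshold for a call was an adjusted p under 0.10 (limma, over all 34365 probe sets), which 1.84% of the probe sets passed, 0.576% higher and 1.26% lower in double transgenic nodules. With 3 samples against 3, an exact permutation test cannot go below p = 0.10. The array medians lay between 6.62 and 6.65. The 2 samples that stood apart were both double transgenic. Sample 52540 correlated across probe sets with the *L2-IL-1β* samples (r = 0.989 to 0.991) as closely as with its own genotype (r = 0.984 and 0.991). Sample 52542 had a summed intensity of 26134.7 over 15 pancreatic acinar markers, against 1530.8 to 2321.7 in the other 5.

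Of the 8 factors only Cdx2 itself was called. Its log2 intensity was 9.04, 9.72 and 9.83 in samples 52540, 52541 and 52542, and 6.74, 6.87 and 6.80 in samples 52543, 52544 and 52545. All double transgenic samples lay well above all *L2-IL-1β* samples. The means were 9.53 ± 0.43 (SD, n = 3) and 6.80 ± 0.06 (SD, n = 3), a 6.62-fold difference (log2 fold change 2.73, 95% interval 2.24 to 3.22, limma adjusted p = 0.0105, exact permutation p = 0.10). The methods give cut-offs of 1.5-fold and p under 0.01, but their own test was not rebuilt. With these cut-offs on the unadjusted p of an equal-variance test, 0.925% of all probe sets passed. Cdx2 was again the 1 factor to pass. The genotype fixes this difference, and transgene RNA and RNA of the endogenous locus (chromosome 5, 148112381 to 148118846, minus strand, NCBIM37) cannot be told apart. Without sample 52543 the log2 fold change was 2.70 and the call was lost (limma adjusted p = 0.109), as it was under the equal-variance test with all samples (adjusted p = 0.166). Within the double transgenic nodules Cdx2 ran over 0.80 log2 units, lowest in 52540, against 0.13 in *L2-IL-1β* nodules.

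Cdx1, the intestinal paralog of Cdx2 (chromosome 18, 61178516 to 61195853), did not follow it. Its values were 6.39, 6.41 and 6.53 in the double transgenic samples and 6.57, 6.42 and 6.37 in the *L2-IL-1β* samples. The genotypes overlapped fully, and the log2 fold change was -0.01 with a 95% interval of -0.21 to 0.18 (limma adjusted p = 0.964). The whole interval lay far below the difference seen for Cdx2, and every Cdx1 value was below the median of its array. Cdx4, the embryonic paralog on the X chromosome, had 5.34, 5.40 and 5.56 against 5.35, 5.24 and 5.29. Its genotypes overlapped too (log2 fold change 0.14, 95% interval -0.05 to 0.33, limma adjusted p = 0.516). Krt14, whose promoter drives the Cdx2 transgene, had 12.75, 12.76 and 12.78 in double transgenic and 13.39, 13.22 and 13.38 in *L2-IL-1β* nodules. It was called lower, with a log2 fold change of -0.57 (limma adjusted p = 0.0416), and lost the call without any 1 of samples 52541, 52543, 52544 and 52545 (adjusted p up to 0.207).

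**Figure D1:**
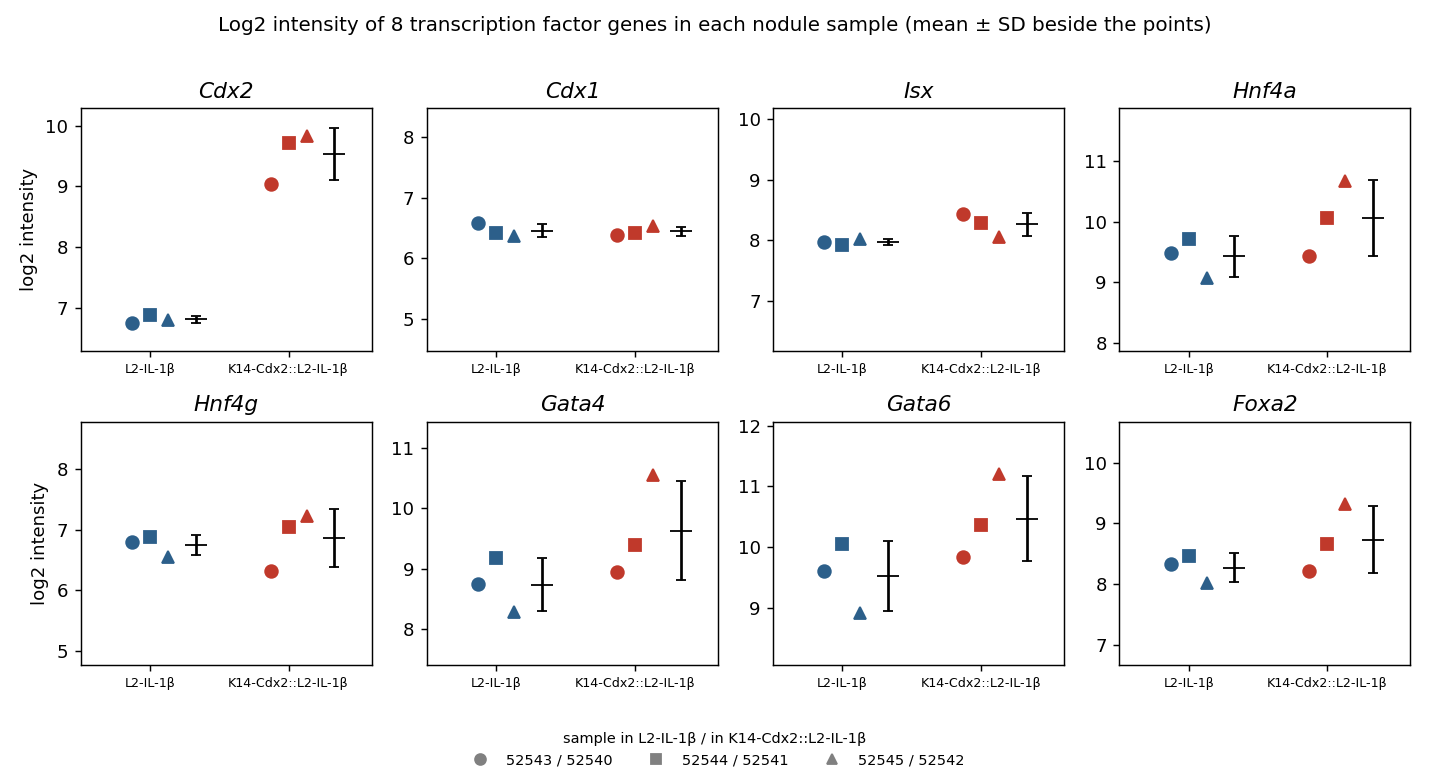
Log2 intensity (y axis, 4 units tall in every panel) of the 8 factors in each of the 6 samples (x axis, by genotype), 1 point per sample with its own marker shape, and the mean ± SD (n = 3) beside them. Cdx2 lies between 9.04 and 9.83 in double transgenic samples against 6.74 to 6.87, whereas Cdx1 stays between 6.37 and 6.57 in all 6 samples and the Hnf4, Gata and Foxa2 points of the genotypes overlap.

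Isx (chromosome 8, 77396618 to 77417405) was the other factor whose genotypes did not overlap. Its values were 8.43, 8.29 and 8.06 in samples 52540, 52541 and 52542, and 7.98, 7.92 and 8.02 in samples 52543, 52544 and 52545. Every double transgenic sample was above every *L2-IL-1β* sample, but 52542 by a small margin. The difference was 1.22-fold (log2 fold change 0.29, 95% interval 0.04 to 0.54) and did not pass over all probe sets (limma adjusted p = 0.298, exact permutation p = 0.10). A gap between genotypes of this kind occurred in 19.8% of all probe sets (8.3% higher, 11.5% lower), and in 2 of these 8 factors. Among the double transgenic samples Isx ran opposite to Cdx2, with its highest value in 52540, where Cdx2 was lowest. The genes that Isx is known to repress, Scarb1 (a lipid and carotenoid receptor) and Bcmo1 (the beta-carotene cleaving enzyme, now Bco1), had log2 fold changes of -0.03 and 0.02 (limma adjusted p = 0.958 and 0.942). Their genotypes overlapped, and neither was called. Bcmo1 lay between 5.13 and 5.37, below the median of each array in every sample, so a decrease could hardly show there.

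Cdhr5 is a microvillar protocadherin of the intestinal brush border. Its probe set rose in the double transgenic nodules, with 7.66, 8.59 and 9.84 against 5.80, 6.11 and 5.64. The lowest double transgenic value lay well above the highest *L2-IL-1β* value. The order of its 3 double transgenic samples was that of Cdx2, but also that of Hnf4a, Hnf4g, Gata4, Gata6 and Foxa2. The log2 fold change was 2.84 (95% interval 1.63 to 4.06, limma adjusted p = 0.0765). The call was lost when sample 52541, 52543, 52544 or 52545 was left out (adjusted p up to 0.300). Promoter windows of 250 bases before to 50 after the annotated start (RefSeq, GRCm38.p6) are printed for Cdhr5 and Isx. TTTATG, the core of the Cdx binding motif, was searched on both strands (reverse complement CATAAA), and 11.9% of 32851 windows of this length held it. The first window is of Cdhr5 (chr7:141276737-141277036, minus strand), with the match in capitals, 39 bases before the start. The second is of Isx (chr8:74872924-74873223, plus strand), without a match.
Cdhr5 promoter: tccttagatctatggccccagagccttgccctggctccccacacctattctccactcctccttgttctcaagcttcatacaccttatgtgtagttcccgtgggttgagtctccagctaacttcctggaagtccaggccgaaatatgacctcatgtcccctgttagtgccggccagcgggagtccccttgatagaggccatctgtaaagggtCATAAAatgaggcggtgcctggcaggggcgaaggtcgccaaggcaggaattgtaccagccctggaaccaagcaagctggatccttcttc
Isx promoter: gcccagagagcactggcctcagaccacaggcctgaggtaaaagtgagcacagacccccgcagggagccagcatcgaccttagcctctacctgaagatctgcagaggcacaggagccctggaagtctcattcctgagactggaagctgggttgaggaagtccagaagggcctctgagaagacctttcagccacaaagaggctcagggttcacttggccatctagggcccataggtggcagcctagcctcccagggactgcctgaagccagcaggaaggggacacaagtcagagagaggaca
Of the 8 factors, 4 (Cdx2, Isx, Hnf4a and Foxa2) were matched to 7 windows, and TTTATG was in 0 of the 7. A match is a description of these letters and not a binding site, and its part in the values of Cdhr5 or Isx was not tested.

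The Hnf4, Gata and Foxa2 genes were not called, and their values shared a pattern over samples that cut across the genotypes. Hnf4a (chromosome 2, 163372924 to 163398641) had 9.43, 10.07 and 10.68 in double transgenic and 9.49, 9.72 and 9.06 in *L2-IL-1β* nodules. The highest values were those of 52542 and 52541, while 52540 lay among the *L2-IL-1β* samples. The means were 10.06 ± 0.62 and 9.43 ± 0.33 (SD, n = 3 each), a log2 fold change of 0.63 (95% interval -0.14 to 1.41, limma adjusted p = 0.458). Hnf4g, the other HNF4 receptor of the intestine (chromosome 3, 3508030 to 3659775), had 6.33, 7.05 and 7.23 against 6.80, 6.89 and 6.56. Here 52540 was the lowest of all 6 samples, and the log2 fold change was 0.12 (95% interval -0.44 to 0.68, limma adjusted p = 0.874).

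Gata4, which in the adult marks glandular stomach and proximal intestine (chromosome 14, 63817759 to 63864085), had 8.95, 9.39 and 10.54 in double transgenic and 8.75, 9.18 and 8.29 in *L2-IL-1β* nodules. Sample 52542 lay 1.80 above the *L2-IL-1β* mean and 52545 lay 0.45 below it. The log2 fold change was 0.89 (95% interval -0.12 to 1.91, limma adjusted p = 0.426). Gata6, the broader of the endodermal GATA factors (chromosome 18, 11052508 to 11085633), had 9.84, 10.36 and 11.21 against 9.60, 10.05 and 8.90. It had the widest range of the members other than Cdx2, 2.31 log2 units over the 6 samples. Its genotypes overlapped through 52544, which was above 52540, and its log2 fold change of 0.95 (95% interval -0.03 to 1.94) came with a limma adjusted p of 0.381. Foxa2 (chromosome 2, 147868613 to 147872705) had 8.22, 8.65 and 9.33 against 8.33, 8.47 and 8.01. Again 52542 was highest and 52545 lowest, with a log2 fold change of 0.46 (95% interval -0.20 to 1.13, limma adjusted p = 0.532).

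**Figure D2:**
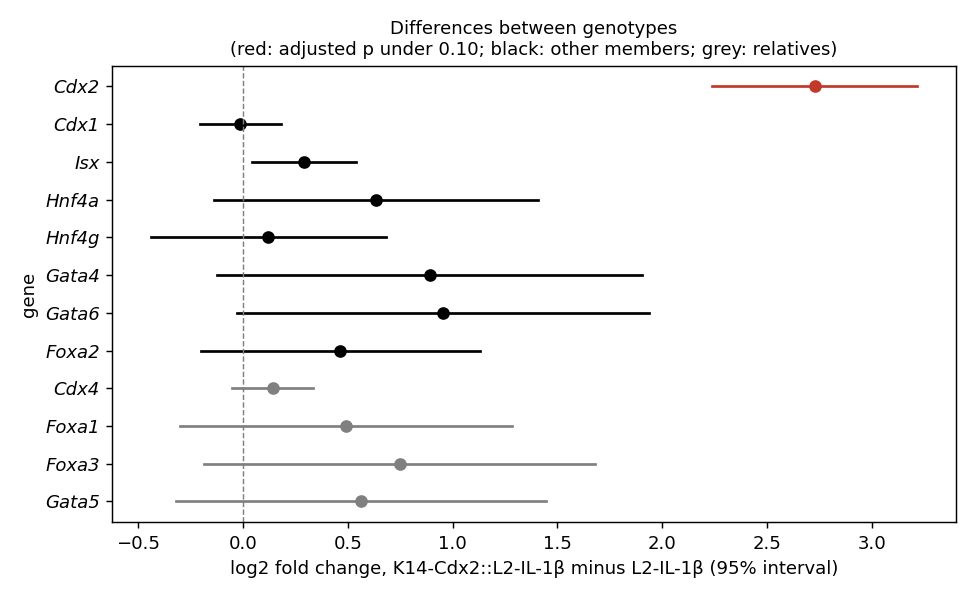
Log2 fold change, double transgenic minus *L2-IL-1β* (x axis), with 95% intervals from limma (n = 3 samples each) for the 8 factors and 4 related genes (y axis), with called genes in red, other members in black and relatives in grey. Only the Cdx2 interval (2.24 to 3.22) belongs to a called gene, and those of Hnf4a, Hnf4g, Gata4, Gata6 and Foxa2 all reach below 0.

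The 5 genes were highest in 52542 and second highest in 52541, all 5 of them, and 4 of the 5 were lowest in 52545. Hnf4a and Foxa2 had the same order in all 6 samples. The order 52542, then 52541, then 52544 at the top, picked after the values were seen, was found in 967 of 34365 probe sets (2.81%), in 5 of the 8 factors and in 3 of 4 relatives (Foxa1, Foxa3 and Gata5, but not Cdx4). Both samples that stood apart moved the differences. Without 52540 the log2 fold change was 0.95 for Hnf4a, 0.39 for Hnf4g, 1.23 for Gata4, 1.27 for Gata6 and 0.72 for Foxa2, still with 0 of the 5 called. Without 52542 the log2 fold change was 0.32 for Hnf4a, 0.43 for Gata4, 0.58 for Gata6 and 0.17 for Foxa2, and that of Hnf4g turned to -0.06. Isx moved the other way, to 0.39, still without a call (limma adjusted p = 0.118). Cdx2 kept its call without 52542 (2.58, limma adjusted p = 0.018). In all, 7 of the 8 fold changes were positive and the median was 0.55, beside -0.01 over all probe sets. The 7 include Cdx2, whose difference the genotype fixes, and the 5 genes that share a pattern over samples. They are therefore not independent, and the share of positive fold changes over all probe sets was not counted.

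Hnf4a has 2 annotated start windows. The RefSeq window of its upstream start (chr2:163506607-163506906, plus strand, GRCm38.p6) holds the GATA motif core AGATAA, in capitals, 52 bases before the start.
Hnf4a upstream promoter: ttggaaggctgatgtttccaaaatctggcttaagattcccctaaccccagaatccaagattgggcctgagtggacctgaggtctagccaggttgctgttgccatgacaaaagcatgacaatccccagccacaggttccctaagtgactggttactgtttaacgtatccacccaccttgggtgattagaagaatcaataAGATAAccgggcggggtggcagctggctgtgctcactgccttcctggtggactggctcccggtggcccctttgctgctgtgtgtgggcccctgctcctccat
AGATAA (reverse complement TTATCT, both strands searched) was in 2 of the 7 windows of the factors, this one and a Foxa2 window, and in 11.2% of all 32851 windows. The other Hnf4a window held no match.

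Most but not all markers of columnar epithelium moved with the 5 genes. The 8 columnar markers (Krt7, Krt8, Krt18, Krt19, Epcam, Cldn3, Cldn7 and Cldn18) had a mean level, relative to the *L2-IL-1β* mean, of -0.17, 0.22 and 0.64 in 52540, 52541 and 52542, and of 0.04, 0.18 and -0.22 in 52543, 52544 and 52545. Their summed intensity ran from 16122.9 to 30583.3 in double transgenic and from 14486.9 to 20957.6 in *L2-IL-1β* nodules, and 0 of the 8 were called (median log2 fold change 0.40). Leaving out 1 sample moved this median to 0.12 without 52542, 0.24 without 52545 and 0.67 without 52540. Krt7, Cldn18 and Cldn7 had the smallest p of the list, with log2 fold changes of 0.49, 0.54 and -0.32 (limma adjusted p = 0.458, 0.457 and 0.555). Of the 8, 5 had the order 52542, 52541, 52544 at the top. Epcam, Cldn3 and Cldn7 were instead highest in 52543, an *L2-IL-1β* sample, with log2 fold changes of -0.08, -0.05 and -0.32. Genes of gastric epithelium, 17 in number, had mean levels of 0.17, 0.45 and 1.0 against 0.14, 0.42 and -0.56. This mean was also highest in 52542 and lowest in 52545, but only 6 of the 17 had the order 52542, 52541, 52544 at the top. Of the 17, 0 were called (median 0.40, which was 0.22 without 52542 and 0.57 without 52540). Muc5ac, the surface mucin of the stomach, had 12.42, 12.76 and 13.28 against 11.08, 12.42 and 11.31 (log2 fold change 1.22, limma adjusted p = 0.239). Kcne2, a parietal cell potassium channel subunit, and Gkn3, a gastrokine, had 1.57 and -0.78 (limma adjusted p = 0.264 and 0.302). The part of columnar content in the values of the 5 factors was not tested.

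Pancreatic acinar markers stood apart in 52542 alone. Their mean over 15 genes was 2.92 above the *L2-IL-1β* mean in that sample and between -0.19 and 0.19 in the other 5. Of the 15, 0 were called, and the median log2 fold change of 1.25 became 0.08 without 52542. Amy2a5, Cel and Pnliprp1, which encode secreted digestive enzymes, had 2.42, 1.66 and 1.25 (limma adjusted p = 0.498, 0.528 and 0.561). As Hnf4a, Gata4, Gata6 and Foxa2 are all active in pancreas, this content is given beside their values in 52542, and its part in them was not tested. In 52541, where the acinar mean was 0.19, the 5 factors lay 0.30 to 0.84 above the *L2-IL-1β* mean. In 52540, where the acinar mean was 0.04, they lay between -0.42 and 0.32 from it. The columnar and gastric means were 0.22 and 0.45 in 52541 and -0.17 and 0.17 in 52540. The 8 hepatocyte markers were at 0.53 in 52542 and between -0.15 and 0.24 elsewhere, with 0 called (median 0.14; Ttr 1.03, limma adjusted p = 0.452). Of 6 islet markers 0 were called (median 0.03), among them Ins2 (0.19), Gcg (-0.11) and Sst (0.83). With dim probe sets (mean below 6.64) left out, the hepatocyte median was 0.88 and the islet median 0.43.

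**Figure D3:**
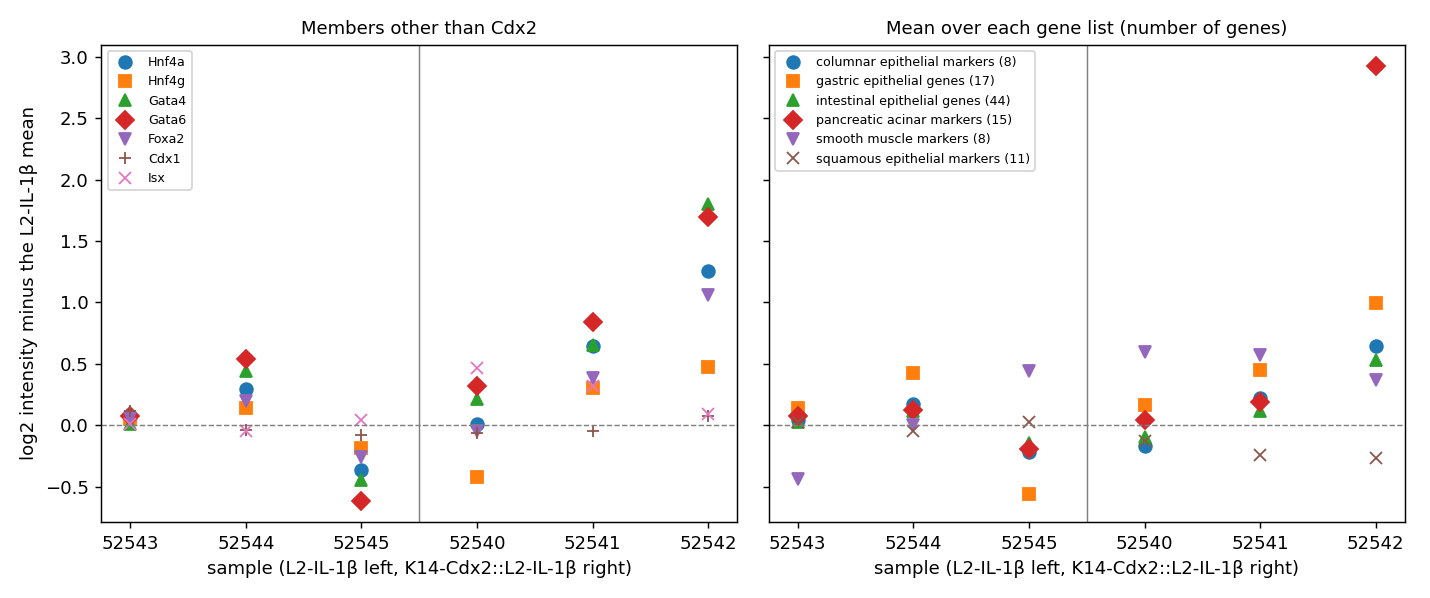
Left, log2 intensity minus the *L2-IL-1β* mean (y axis) of the 7 factors other than Cdx2 in each sample (x axis), 1 marker shape per gene. Right, the same difference averaged over 6 gene lists, 1 marker shape per list. Gata4 and Gata6 peak at 1.80 and 1.69 in 52542, where the acinar mean reaches 2.92 and the columnar mean 0.64.

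Other transcription factors of endoderm were counted beside them. Of 33, 0 were higher, 1 was lower and 32 were not called, with a median log2 fold change of 0.02. The 1 was Vdr, the vitamin D receptor, with 9.08, 9.33 and 8.96 against 9.88, 9.77 and 9.84. All its double transgenic values lay below all *L2-IL-1β* values, and its log2 fold change was -0.71 (standard error 0.10, limma adjusted p = 0.0525). The call was lost without sample 52543, 52544 or 52545 (adjusted p up to 0.241). Mecom, a zinc finger factor, and Klf5, a Krüppel-like factor of epithelial progenitors, had 0.64 and -0.17 (limma adjusted p = 0.323 and 0.333). The close relatives Foxa1, Foxa3 and Gata5, named after their values were seen, had 0.49, 0.75 and 0.56 (limma adjusted p = 0.467 to 0.582), and each peaked in 52542.

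Of 13 factors of foregut and stomach, 0 were called (median 0.07, and -0.04 without 52542). An unadjusted p under 0.05 was found for 5 of them, beside 4699 of the 34365 probe sets. Of the 5, 3 were higher. Pax9, a paired box factor, and Nkx2-1, a homeobox factor of lung and thyroid, had log2 fold changes of -0.52 and -0.17 (limma adjusted p = 0.314 and 0.347). Nkx2-1 lay below the median of each array in every sample. Esrrg, a nuclear receptor of gastric parietal cells, had 9.14, 9.47 and 10.37 against 8.36, 8.55 and 7.62, without overlap. Its log2 fold change was 1.49 (limma adjusted p = 0.157), and it passed when 52540 was left out (limma adjusted p = 0.0803) and with array weights (0.0908). Foxp2, a forkhead factor, and Barx1, a homeobox factor of stomach mesenchyme, had 0.68 and 0.70 (limma adjusted p = 0.169 and 0.194), and Foxp2 passed with array weights (0.80, adjusted p = 0.0927). Both were higher in every double transgenic sample, and neither peaked in 52542.

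Genes of intestinal epithelium, many of which the Cdx and Hnf4 factors are known to bind, were mostly not called. Of 44, 2 were higher, 2 were lower and 40 were not called, with a median log2 fold change of 0.10, which was -0.03 without 52542. Beside Cdhr5, the higher gene was Espn, an actin bundling protein of microvilli, with 8.60, 8.63 and 8.35 against 7.95, 7.96 and 7.80 (log2 fold change 0.62, limma adjusted p = 0.0579). The annotation of the Espn probe set names more than 1 gene symbol. The lower genes were Tmigd1, an adhesion molecule of the enterocyte, with 8.68, 8.77 and 8.11 against 10.23, 9.88 and 9.82, and Fcgbp, a protein of goblet cell mucus, with 7.62, 7.41 and 8.0 against 8.60, 8.86 and 8.49. Their log2 fold changes were -1.46 and -0.98 (limma adjusted p = 0.047 and 0.0708). Each of these 4 genes was free of overlap between genotypes, and each lost its call without sample 52541, 52543, 52544 or 52545, with an adjusted p of at most 0.300. Other defining genes were not called. Cdh17, a cadherin and known Cdx2 target, had a log2 fold change of 0.04, and Muc2, the goblet cell mucin, of 0.01. Sis, the brush border sucrase, had 0.24 and Vil1, the microvillar villin, 0.00. These 4 were chosen after their values were seen, and Cdh17 and Sis lay below the median of each array in every sample. Of the 40 not called, 6 had an unadjusted p under 0.05. The lipoprotein genes Apoa4 and Apob stood at 1.35 and 0.91, the peptidase gene Anpep at 0.79 and the chloride exchanger gene Slc26a3 at 0.28, all higher. The glucose transporter gene Slc5a1 and the ferroxidase gene Heph stood at -0.93 and -0.26 (limma adjusted p of the 6 between 0.127 and 0.357). Apart from Apoa4, the genotypes of these 6 did not overlap, and Slc26a3 lay below the median of each array in every sample. Over all 44 genes, 10 had an unadjusted p under 0.05, beside 4699 of the 34365 probe sets. A gap between genotypes was found for 6 of the 44 higher and 4 lower, beside 8.3% and 11.5% of all probe sets. By sample, the mean over the 44 genes was -0.09, 0.12 and 0.53 against 0.03, 0.12 and -0.14, so that 52542 was highest here too. The order 52542, 52541, 52544 at the top was found in 8 of the 44.

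**Figure D4:**
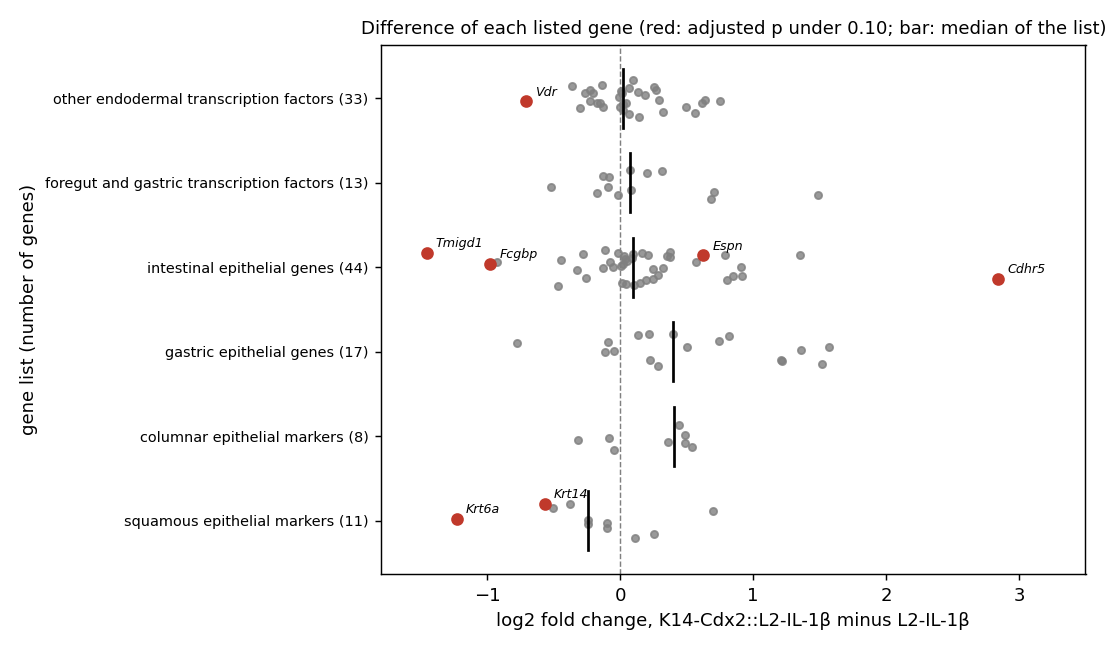
Log2 fold change, double transgenic minus *L2-IL-1β* (x axis), of each gene in 6 lists (y axis), 1 point per gene, with called genes in red and the median of each list as a bar. The intestinal genes spread around a median of 0.10, with Cdhr5 at 2.84 and Tmigd1 at -1.46, and the squamous genes lie around -0.24.

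The squamous markers describe the compartment in which the Cdx2 transgene is expressed. Of 11, 2 were lower (Krt14 and Krt6a), 0 higher and 9 not called, with a median of -0.24, which was -0.07 without 52542. Krt6a, a keratin of activated squamous epithelium, had 11.83, 11.91 and 12.51 against 13.37, 13.28 and 13.29 (log2 fold change -1.23, limma adjusted p = 0.0508). It lost the call without sample 52541, 52543, 52544 or 52545 (adjusted p up to 0.239). Krt5, the keratin partner of Krt14, had -0.24 (limma adjusted p = 0.152). In the other direction, and also not called, were Ivl, the cornified envelope protein involucrin, at 0.70 (limma adjusted p = 0.341), Krt15 at 0.25 and Lor, the envelope protein loricrin, at 0.11. These 3 were named after their values were seen. The list mean was -0.13, -0.24 and -0.26 in 52540, 52541 and 52542, so that, unlike the columnar genes, all double transgenic samples lay on 1 side. Of the stromal and immune lists, 0 genes were called. A gap between genotypes was nonetheless found for 4 of 8 smooth muscle markers, all higher, and for 4 of 6 leukocyte markers, all lower. Such gaps were found in 8.3% (higher) and 11.5% (lower) of all probe sets. In each of these 2 lists, 3 genes had an unadjusted limma p under 0.05, beside 4699 of the 34365 probe sets. Smooth muscle markers (8 genes) had a median of 0.52, with Myh11 at 0.75, Smtn at 0.57 and Tagln at 0.56, and the median was 0.27 without 52543 and 0.77 without 52545. Fibroblast (6 genes, median 0.07, Pdgfra 0.40) and endothelial markers (6 genes, median -0.17, Vwf -0.46) were not called either. The 6 leukocyte markers had a median of -0.45, with Ptprc at -0.80, Itgam at -0.53 and Cd3e at -1.29. Cd3e lay just above the limit for a call (limma adjusted p = 0.103). The leukocyte mean was -0.37, -0.28 and -0.65 in the double transgenic samples, and its part in the other values was not tested.

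The genes closest to Cdx2 and to Gata6 over the 6 samples were ranked by the root mean square difference of their mean-centred log2 values, as a description. Nearest to Cdx2 were Ifi27l2b (0.42), an interferon-inducible gene, Cdhr5 (0.45), Far2 (0.53), a fatty acyl-CoA reductase, 5430419D17Rik (0.53) and Tmem171 (0.62). The first 4 were called higher, with log2 fold changes of 2.60, 2.84, 2.41 and 1.92, and Tmem171 was not (1.77, limma adjusted p = 0.185), although it passed with array weights (1.91, adjusted p = 0.062) and without 52540 (2.31, adjusted p = 0.0416). Without 52543 0 of the 4 were called (adjusted p 0.109 to 0.300). No other factor came close to Cdx2, the nearest being Gata6 at 0.97. Within the double transgenic samples, Ifi27l2b, Cdhr5 and Tmem171 kept the Cdx2 order, whereas Far2 and 5430419D17Rik were highest in 52541 and lowest in 52542. The Hnf4, Gata and Foxa2 genes also had the Cdx2 order in these samples.

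Around Gata6 the distances were far smaller. The nearest were Pcbd1 (0.05), a pterin dehydratase, Mfsd4 (0.07), Gca (0.10), Chga (0.12), the chromogranin of enteroendocrine cells, and Tmem8 (0.12). Pcbd1 had 10.27, 10.84 and 11.69 against 10.03, 10.50 and 9.49, the same order of the 6 samples as Gata6. Of the 5, 0 were called, with limma adjusted p between 0.296 and 0.432. Among the factors, Gata4 stood at 0.13 from Gata6, Hnf4a at 0.22, Foxa2 at 0.33 and Hnf4g at 0.52, while Cdx1 and Isx lay at 0.68 and 0.71. Gata4, Gata6 and Pcbd1 thus ranked the samples alike, with 52542 first and 52545 last.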

How the data were processed

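The authors deposited log2 intensities per probe set, already normalized between arrays. The sources used here do not name the background correction, the normalization or the software. The array type differs between the methods and the design text, both of which name an Affymetrix mouse gene array, and the 2 deposited tables with values per array were identical. The submitters' notes name mm8, whereas the annotation gives the printed positions on NCBIM37. The deposited fold change, ratio, p-value, step-up p-value, SAM score and q-value columns hold the authors' own comparison and were not used, and the SAM test was not rebuilt.

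All 34365 probe sets (27037 with a symbol) were fitted with limma 3.58.1 under R 4.3.3 (functions lmFit and eBayes, genotype as the only term, 2.59 prior degrees of freedom, Benjamini-Hochberg adjustment). A gene with several probe sets entered with its brightest, by mean over arrays. For single genes, the exact permutation test was two-sided. Precision is limited by the number of arrays. The 14 gene lists held 183 entries, all measured, 3 under an older symbol. The members and lists were chosen with earlier results of these data known. Genes named were the members, Cdx4, Cdhr5, Scarb1 and Bco1, each list's called genes or else its 3 of smallest p, and the 5 genes nearest Cdx2 and nearest the member of widest range. Others were chosen after their values were seen, and some genes are not reported here. Alternatives were median centring, quantile normalization, a filter on dim probe sets (mean below 6.64), probe sets naming 1 gene, averaging the probe sets of a gene, trended and robust eBayes, an equal-variance test, array weights, other thresholds and leaving out each array. On simulated data, 79% of 2-fold and 96% of 4-fold changes were recovered (186 called, 11 falsely). The changes were put into probe sets picked at random, with independent normal noise and the same spread in both genotypes. No pattern shared over samples was simulated, and the rates do not hold for genes of wide spread, such as Gata4 and Gata6. Promoter sequences are from RefSeq. Tables and figures were made with Python 3.11.15.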

Additional observations from a re-analysis of the deposited data

How the results depend on the processing

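Leaving out each array in turn gave 0 to 1 of the 8 factors called, 0 to 751 probe sets higher (198 with all 6) and 13 to 1275 lower (433 with all 6), and 0 to 7 list genes higher (2) and 0 to 10 lower (5). The log2 fold change of Cdx2 ran from 2.58 to 2.98 (limma adjusted p = 0.00122 to 0.109), and its call was lost without 52543. The equal-variance test, run per probe set, called 0 factors, 0 probe sets higher, 0 lower and 0 list genes in either direction (Cdx2 2.73, adjusted p = 0.166), although 4060 probe sets had an unadjusted p under 0.05 by it and 4699 by limma. Without 52543, 3096 probe sets had an unadjusted p under 0.05. Array weights called 624 probe sets higher and 904 lower, and 4 list genes higher and 9 lower. With the adjusted p limit at 0.05 there were 46 higher and 144 lower probe sets. The cut-offs of the methods (fold 1.5, p under 0.01), put on the unadjusted equal-variance test, gave 70 and 248. With probe sets of 1 gene, which left out Espn, 1 list gene was higher. The other 7 factors were not called under any alternative setting (97 combinations of factor and setting, lowest limma adjusted p 0.118). Averaging probe sets repeats the main fit for them, as each has 1 probe set. Cdx1 turned to 0.01 without 52540, 0.00 without 52541 and 0.046 without 52543 (range -0.056 to 0.046), and Hnf4g to -0.059 without 52542 (range -0.059 to 0.39). Scarb1, higher without 52540, 52541 or 52544, ran from -0.23 to 0.086, and Bcmo1, lower without 52541 or 52544, from -0.031 to 0.092. Between arrays left out, list medians also ran from -0.16 to 0.35 for fibroblast, -0.25 to -0.064 for endothelial, -0.55 to -0.28 for leukocyte and -0.034 to 0.061 for islet markers, and from -0.026 to 0.048 for the other endodermal factors. The cause was not tested, other than fewer arrays. The filter on dim probe sets left out Cdx1, Cdx4 and Bcmo1, among others, so these had no value there. No paired analysis was possible because the genotypes share no sample number.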
